A study of Mus musculus with 14 samples.

Results

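The colony-stimulating factors are cytokines that control the survival, division and maturation of macrophages and granulocytes, and 1 of these factors and 5 receptor chains are described here across all 14 libraries of a mouse tumor study. The members, taken by gene symbol from both deposited tables, were Csf1, Csf1r, Csf2ra, Csf2rb, Csf2rb2 and Csf3r, 6 of the 12924 genes listed. All 6 passed the filter on low values in both tables. Lewis lung carcinoma (LLC), a transplantable line from a mouse lung tumor, had been inoculated in the flanks of p110g-/- mice and of wild-type (WT) mice, both C57BL/6, and tumors were collected on day 14. The p110g-/- mice lack PI3K gamma, the lipid kinase subunit encoded by Pik3cg, in the host only, since the inoculated carcinoma cells came from the same line in both genotypes. Tumor-associated macrophages (TAM), sorted as CD11b+Gr1- cells, gave 4 p110g-/- and 4 WT libraries, and pieces of whole tumor gave 3 p110g-/- and 3 WT libraries. Each TAM library came from 1000000 sorted cells and each tumor library from 30 mg of tissue. Whether every library came from its own animal is not stated in the labels, so the p-values speak of variation among these libraries, part of which may be technical.

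CSF1 (also called M-CSF) and IL-34 both bind the receptor tyrosine kinase CSF1R, on which most tissue macrophages depend. GM-CSF, the product of Csf2, is bound by an alpha chain, CSF2RA, which joins a signalling beta chain, CSF2RB, that the IL-3 and IL-5 receptors also use. The mouse has a further, closely related beta chain, encoded by Csf2rb2, which serves the IL-3 receptor. G-CSF, the product of Csf3, acts on CSF3R, the main receptor for neutrophil production. The beta chains and CSF3R signal through JAK2 and STAT proteins, and PI3 kinases act below CSF1R and the beta chains.

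The sequences of the Csf2ra promoter and of the related beta chains are shown because the results turn on Csf2ra and on its ratio to Csf2rb. RefSeq places the mouse Csf2ra start on the minus strand of chromosome 19, and the 207 bases before the most upstream start (GRCm38.p6, chr19:61228462-61228668) are given 5′ to 3′ with a cAMP response element, TGACGTCA, in capitals.
Csf2ra promoter: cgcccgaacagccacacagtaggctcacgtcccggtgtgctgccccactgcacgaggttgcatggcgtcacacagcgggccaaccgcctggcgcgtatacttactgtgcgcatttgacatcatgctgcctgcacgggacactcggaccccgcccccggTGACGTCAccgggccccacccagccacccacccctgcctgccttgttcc
The element begins 49 bases before that start, and, searched on both strands, it occurred in 307 of 32851 RefSeq promoters in a window of the same length, or 0.935%. Each window was the first 207 bases of a promoter entry, not placed by the most upstream start of its gene. The letters GAGGAA, a core of PU.1 sites, occurred in 19.3% of these windows and not in that of Csf2ra. A promoter entry was found for 4 of the 6 members, and none of the other 3 held TGACGTCA in its window. GAGGAA was in the windows of Csf3r and Csf2rb2 and not in that of Csf1. Csf2rb and Csf2rb2 are neighbours on chromosome 15, with coding sequences of 2688 and 2634 bases that were identical at 95.24% of 2628 aligned positions in the GENCODE transcripts. They share a run of 242 bases, and 26.03% of all 50-base windows of Csf2rb occur in Csf2rb2. The 60-base stretch in which they differ most has 13 differences, in capitals, at coding bases 304 to 363 of Csf2rb and 307 to 366 of Csf2rb2.
Csf2rb: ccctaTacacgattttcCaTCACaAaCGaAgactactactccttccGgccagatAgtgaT
Csf2rb2: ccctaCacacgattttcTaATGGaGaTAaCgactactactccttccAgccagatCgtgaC
The labels and files do not say how reads matching both genes were counted, so the values of Csf2rb and Csf2rb2 are uncertain.

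Values are normalized counts, whole numbers that the authors made by scaling each library, so they compare samples within a table. An estimated 19.7 to 40.7 M reads lay behind each TAM library and 32.1 to 44.6 M behind each tumor library, and 3 reads were worth at most 5.81 normalized counts. Pik3cg had 2203, 2211, 1210 and 1401 normalized counts in p110g-/- TAM, against 3745, 4477, 3070 and 2748 in WT TAM. It had 242, 279 and 417 in p110g-/- tumors, against 487, 616 and 527 in WT tumors, so transcript of the targeted gene was lower in every p110g-/- library but not absent. The log2 fold changes were -1.02 in TAM (limma adjusted p = 0.299, and 0.00557 with the replicate number as a block) and -0.83 in whole tumors (limma adjusted p = 0.0555). The 12 listed macrophage markers in the tables summed to 307162 to 397049 in p110g-/- TAM and 327487 to 408965 in WT TAM, and to 55458 to 78745 in p110g-/- tumors and 54421 to 72236 in WT tumors. None of the 12 was called in either table by limma, and Fcgr1 was lower in p110g-/- TAM with the block. The TAM libraries were not alike within a genotype: fibroblast and matrix markers summed to between 738 and 41672 in p110g-/- TAM and between 2622 and 53579 in WT TAM, lowest in the libraries numbered 1 and highest in those numbered 3 and 4. TAM libraries that carry the same number in both genotypes deviated from their groups alike, with correlations of 0.847, 0.472, 0.808 and 0.702 across 12475 genes, so results with the number as a block are given for TAM where they change a call. Numbers 3 and 4 also matched each other, at 0.777 for p110g-/- 3 with WT 4 and 0.704 for p110g-/- 4 with WT 3, so pairs cannot be told apart from a coarser grouping of libraries. The mitochondrial share of counts was 2.68%, 3.18%, 8.92% and 14.3% in p110g-/- TAM, against 2.46%, 3.04%, 7.62% and 9.50% in WT TAM, higher in p110g-/- for each number. It was 2.43% to 2.95% in p110g-/- tumors, against 2.96% to 3.25% in WT tumors, and its part in the results was not tested.

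**Figure D1:**
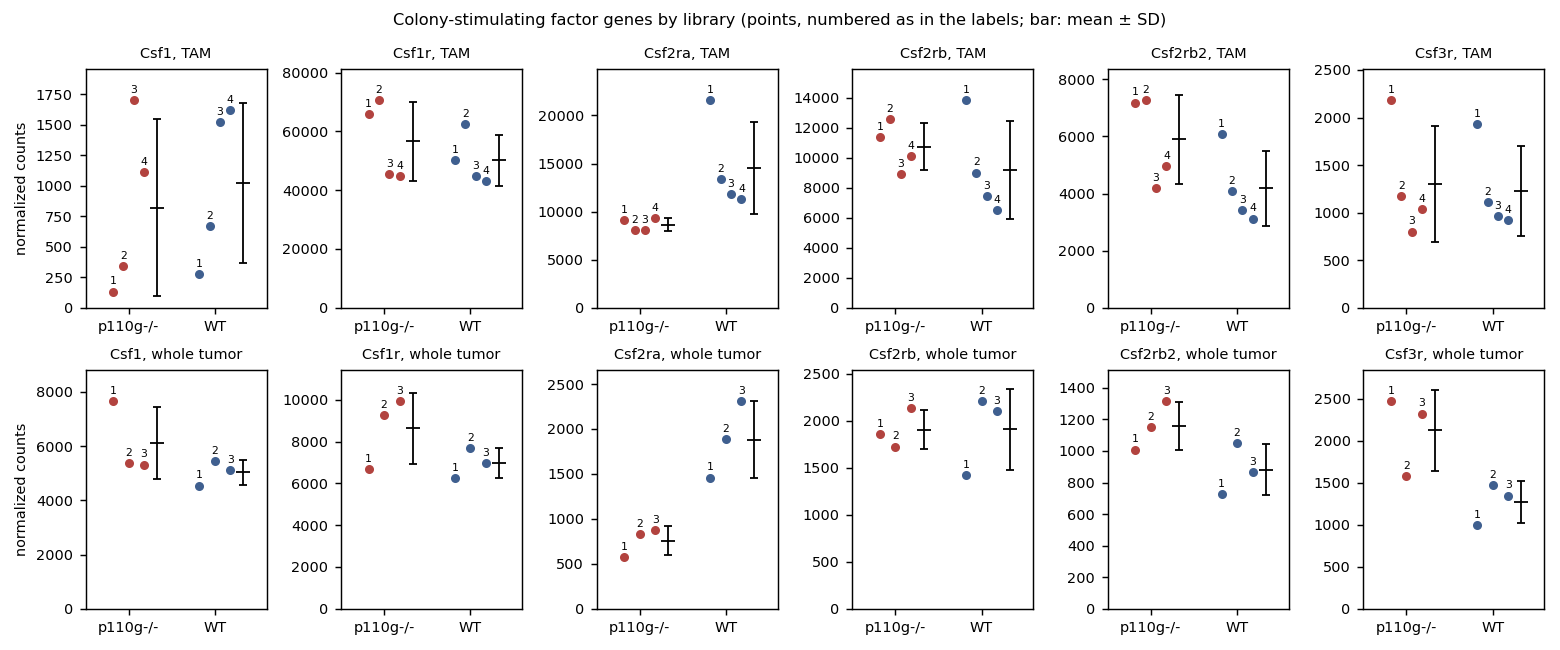
Normalized counts of the 6 members, p110g-/- left of WT, with TAM in the upper row and whole tumors in the lower, each panel on its own linear axis from 0; points are numbered libraries and bars are the mean and SD. Csf2ra in p110g-/- libraries lay below every WT library in both tables, Csf3r lay above every WT library in whole tumors, and Csf1 in TAM ran over more than a 10-fold range within p110g-/-.

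Csf1r was the most abundant member per kilobase of exon in all 4 group means. On that scale its level averaged 11592 ± 2748 in p110g-/- TAM and 10264 ± 1785 in WT TAM (SD, n = 4 each), and 1767 ± 350 in p110g-/- tumors and 1427 ± 149 in WT tumors (SD, n = 3 each). In TAM the order of the means was Csf1r, Csf2ra, Csf2rb, Csf2rb2, Csf3r and Csf1 in both genotypes. Csf2ra averaged 4647 ± 362 per kilobase in p110g-/- TAM, against 7801 ± 2575 in WT TAM, and 1 WT library, number 1, had more Csf2ra than Csf1r. Csf3r and Csf1, at the bottom, were not separated by their spread, at 370 ± 173 and 174 ± 153 in p110g-/- TAM and 351 ± 135 and 217 ± 139 in WT TAM. In whole tumors Csf1 had the second highest mean, at 1296 ± 282 per kilobase in p110g-/- tumors and 1068 ± 98.0 in WT tumors. It stood above Csf1r in p110g-/- tumor 1 and below Csf2ra in WT tumor 3, and in WT tumors Csf1 and Csf2ra were not separated by their spread. The next places differed between the genotypes: in p110g-/- tumors Csf3r (606 ± 137) stood above Csf2ra (408 ± 88.4) and Csf2rb (365 ± 39.7), whereas in WT tumors Csf2ra (1012 ± 228) stood above Csf2rb (365 ± 81.9) and Csf3r (363 ± 71.0). In p110g-/- tumors Csf2ra and Csf2rb overlapped, as did Csf2rb and Csf3r in WT tumors. Csf2rb2 was the lowest member in both, at 244 ± 32.2 in p110g-/- tumors and 186 ± 34.1 in WT tumors.

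Csf2ra, the GM-CSF-specific alpha chain, had the lowest adjusted p of the members in both tables. In whole tumors it had 571, 833 and 874 normalized counts in p110g-/- tumors, against 1458, 1884 and 2307 in WT tumors. The groups did not overlap, and the p110g-/- mean was 0.403 of the WT mean. The log2 fold change was -1.31 ± 0.20 (SE), and the gene fell with an adjusted p of 0.0227 by limma with Benjamini-Hochberg adjustment over 12717 genes. It was the 1 member of 6 called in whole tumors, where 4.35% of all genes tested were called, 2.25% higher and 2.10% lower. Groups of 3 and 3 libraries were without overlap for 31.0% of all genes, 15.4% with the p110g-/- tumors below. The call rests on few libraries: leaving out p110g-/- tumor 2 or 3 or WT tumor 2 or 3 raised the adjusted p to 0.0848, 0.0572, 0.0890 or 0.0540 by limma, with log2 fold changes between -1.48 and -1.12 over all 6 omissions. In bulk samples, fewer cells of a type and less RNA per cell cannot be told apart.

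The same direction was seen in sorted cells, without a call. Csf2ra had 9127, 8086, 8044 and 9320 normalized counts in p110g-/- TAM, against 21562, 13415, 11788 and 11273 in WT TAM. No library of the p110g-/- group reached the lowest WT library, an arrangement held by 1.93% of all genes in that direction. The p110g-/- libraries lay within a narrow range, and WT library 1 stood well above the other WT libraries. The log2 fold change was -0.70 ± 0.20 (SE), with an adjusted p of 0.441 by limma and 0.0677 with the number as a block. No member of 6 was called in TAM by limma, where 0.112% of 12475 genes were called, and 1 member, Csf2ra, had an unadjusted p below 0.05. With the block, which called 2.50% of genes, the count of members called was also 0. Sample quality weights, which called 8.01% of genes, gave 2 called members, Csf2ra (log2 fold change -0.44, adjusted p = 0.0222) and Csf2rb2 (0.53, adjusted p = 0.0454). Monocyte markers, from cells that also carry the GM-CSF receptor, summed to 32994 to 98887 in p110g-/- TAM and 47744 to 92015 in WT TAM, and 2 of 8, Ly6c2 and Plac8, were called lower with the block (log2 fold changes -1.99 and -1.30); their part in the Csf2ra values was not tested. With both libraries numbered 1 left out, a choice made after the values were seen, the blocked fit called Csf2ra (log2 fold change -0.52, adjusted p = 0.0304), Csf2rb (0.46, adjusted p = 0.0321) and Csf2rb2 (0.59, adjusted p = 0.0290) by limma, and it called 4.87% of all genes.

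**Figure D2:**
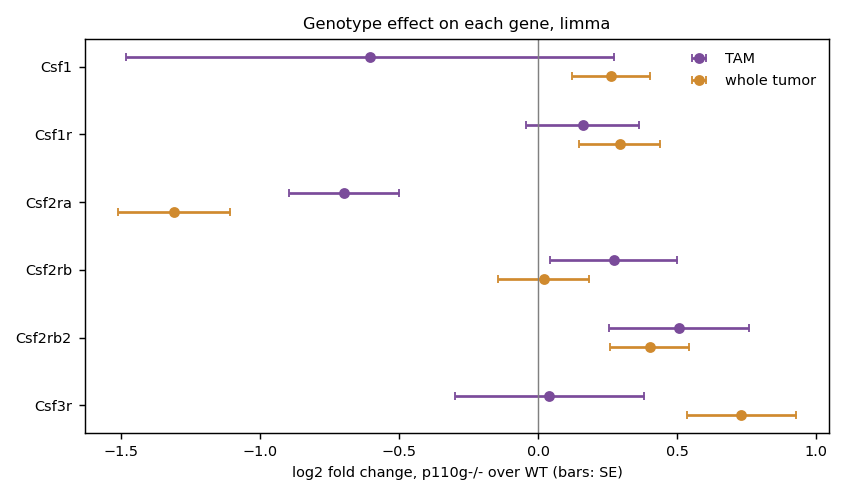
Log2 fold change of each member, p110g-/- over WT, in TAM and in whole tumors, with the standard error of the limma fit as bars and a line at 0. Csf2ra was the one member below 0 by more than its error in both tables, and its value in whole tumors, -1.31, was the only one with an adjusted p below 0.05.

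The beta chains did not follow the alpha chain. Csf2rb, the shared beta chain, had 11396, 12553, 8896 and 10101 normalized counts in p110g-/- TAM, against 13820, 9014, 7462 and 6495 in WT TAM. It was higher in p110g-/- in 3 of 4 same-numbered comparisons, with WT library 1 the highest of all, and its log2 fold change was 0.27 ± 0.23 (SE, limma adjusted p = 0.999). In whole tumors it had 1862, 1726 and 2134 in p110g-/- tumors, against 1419, 2208 and 2101 in WT tumors, a log2 fold change of 0.02 ± 0.16 (SE, limma adjusted p = 0.955). Those groups overlapped throughout their range.

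Csf2rb2, the IL-3 receptor beta chain, had 7185, 7258, 4186 and 4949 normalized counts in p110g-/- TAM, against 6072, 4094, 3419 and 3120 in WT TAM. The p110g-/- library was the higher of each same-numbered pair, as for 11.2% of all genes, and the groups overlapped. The log2 fold change was 0.51 ± 0.25 (SE), with a limma adjusted p of 0.970 and of 0.0704 with the block. Whole tumors gave 1009, 1149 and 1314 in p110g-/- tumors, against 728, 1050 and 865 in WT tumors. That is a log2 fold change of 0.40 ± 0.14 (SE, limma adjusted p = 0.133), with WT tumor 2 above p110g-/- tumor 1.

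Ratios taken within a library do not depend on how that library was scaled, and the following were chosen after the values were seen. The ratio of Csf2ra to Csf2rb was 0.801, 0.644, 0.904 and 0.923 in p110g-/- TAM, against 1.56, 1.49, 1.58 and 1.74 in WT TAM. All p110g-/- libraries lay below all WT libraries, and the WT ratios varied little although Csf2ra and Csf2rb each varied widely among WT libraries. The counts were not divided by gene length, so a ratio of 1 does not mark equal levels. Per kilobase of exon, Csf2ra stood above Csf2rb in every TAM library of both genotypes. The difference in mean log2 ratio was -0.97, with an exact two-sided permutation p of 0.0286, the smallest that 4 against 4 allows, and an adjusted p of 0.1 over 4 ratio tests. Swapping labels only within same-numbered pairs, the ratio was lower in 4 of 4 pairs with an exact p of 0.125, the smallest that 4 pairs allow. In whole tumors the ratio was 0.307, 0.483 and 0.410 in p110g-/- tumors, against 1.03, 0.853 and 1.10 in WT tumors. The groups did not overlap, and the difference in mean log2 ratio was -1.33 with an exact permutation p of 0.1, the smallest that 3 against 3 allows. The ratio of Csf2rb2 to Csf2rb was 0.631, 0.578, 0.471 and 0.490 in p110g-/- TAM, against 0.439, 0.454, 0.458 and 0.480 in WT TAM, higher in p110g-/- in 4 of 4 pairs (exact permutation p within pairs = 0.125). It was 0.542, 0.666 and 0.616 in p110g-/- tumors, against 0.513, 0.476 and 0.412 in WT tumors. These differences, 0.23 and 0.38 in mean log2 ratio, had exact permutation p-values of 0.0571 and 0.1, and both ratios rest on genes that share sequence.

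**Figure D3:**
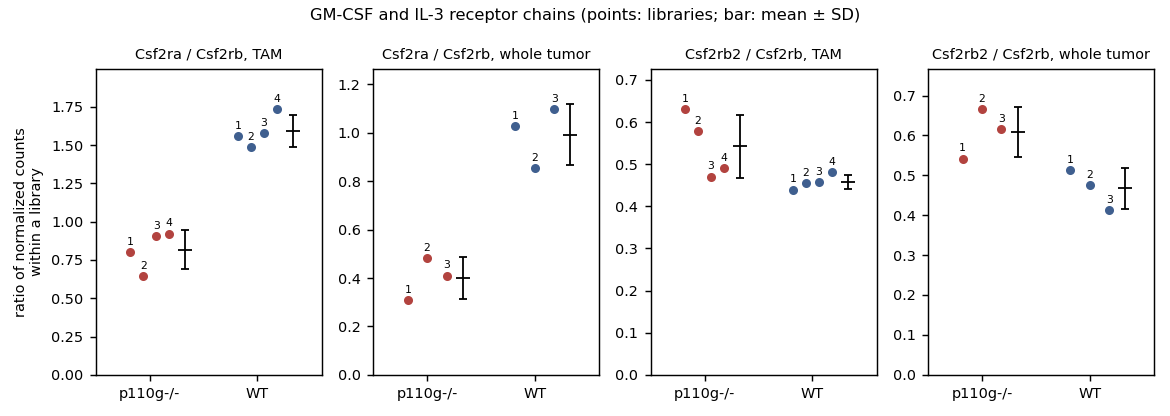
Ratio of normalized counts of Csf2ra to Csf2rb and of Csf2rb2 to Csf2rb in each library, p110g-/- left of WT within TAM and within whole tumor; points are libraries and bars are the mean and SD. The Csf2ra to Csf2rb ratio lay between 0.644 and 0.923 in p110g-/- TAM and between 1.49 and 1.74 in WT TAM.

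Set against the mean log2 level of the 12 macrophage markers of the same library, Csf2ra remained lower in p110g-/-. The difference was -0.68 in TAM (exact permutation p = 0.0286, and 0.125 within pairs) and -1.41 in whole tumors (exact permutation p = 0.1), each the smallest p its design allows, and the adjusted p over 12 such tests was 0.274 for both. The groups did not overlap in either table. Csf3r in whole tumors was higher by 0.63 without overlap (exact permutation p = 0.1, adjusted p = 0.274). Of the other 9 member and table combinations, all overlapped, with differences between -0.58 for Csf1 in TAM and 0.53 for Csf2rb2 in TAM.

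The ligand of this receptor was scarce. Csf2 had 0, 0, 3 and 0 normalized counts in p110g-/- TAM and 0, 0, 5 and 4 in WT TAM. It was at 0 in 5 of 8 libraries and was not tested there. In whole tumors it had 45, 22 and 17 in p110g-/- tumors, against 4, 12 and 10 in WT tumors. The groups did not overlap, as for 15.7% of all genes with the p110g-/- tumors above. The log2 fold change of 1.58 had a limma adjusted p of 0.0993. Il3ra, the alpha chain of the IL-3 receptor, had 1080, 1020, 793 and 847 in p110g-/- TAM, against 826, 848, 700 and 690 in WT TAM (log2 fold change 0.28 ± 0.13 SE, limma adjusted p = 0.917). In whole tumors its values were 299, 315 and 364 in p110g-/- tumors and 281, 284 and 361 in WT tumors. Il3, Il5 and Il5ra were not analysed here.

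Csf1r, the CSF1 and IL-34 receptor that marks macrophages, had 65757, 70505, 45501 and 44752 normalized counts in p110g-/- TAM, against 50220, 62401, 44813 and 43116 in WT TAM. Libraries numbered 1 and 2 were high in both genotypes, and the p110g-/- library was the higher of every pair, as for 11.2% of all genes. The log2 fold change was 0.16 ± 0.20 (SE, limma adjusted p = 0.999, and 0.392 with the block). Whole tumors had 6695, 9282 and 9923 in p110g-/- tumors, against 6245, 7702 and 6964 in WT tumors, a log2 fold change of 0.29 ± 0.15 (SE, limma adjusted p = 0.246). Only p110g-/- tumor 1 lay within the WT range, and without it the log2 fold change was 0.47 with a limma adjusted p of 0.0206, in a fit that called 15.7% of all genes.

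Csf1, the ligand, had 132, 340, 1701 and 1116 normalized counts in p110g-/- TAM, against 275, 673, 1526 and 1623 in WT TAM. The spread within each genotype was far wider than the difference between them: the log2 fold change was -0.60 ± 0.88 (SE, limma adjusted p = 0.999, and 0.180 with the block), and it was 0.07 without p110g-/- library 1. Csf1 followed the stromal markers from library to library. The summed fibroblast and matrix markers were 738, 8743, 41672 and 30439 in p110g-/- TAM, against 2622, 26194, 47998 and 53579 in WT TAM, in the same order of libraries as Csf1 in each genotype. Krt8, a keratin of carcinoma cells singled out after its values were seen, had 46, 197, 1569 and 1194 in p110g-/- TAM, against 76, 499, 1573 and 1648 in WT TAM. Csf1 amounted to 179, 38.9, 40.8 and 36.7 per 1000 of the stromal counts in p110g-/- TAM, against 105, 25.7, 31.8 and 30.3 in WT TAM. This ratio was the higher of each same-numbered pair in p110g-/- and was not tested. Its stromal sum was mostly Col3a1, at a mean of 16605 in p110g-/- TAM and 26892 in WT TAM. Csf1 itself was the lower of the pair in p110g-/- for every number except 3. What part other cells had in the Csf1 of the sorted libraries was not tested.

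**Figure D4:**
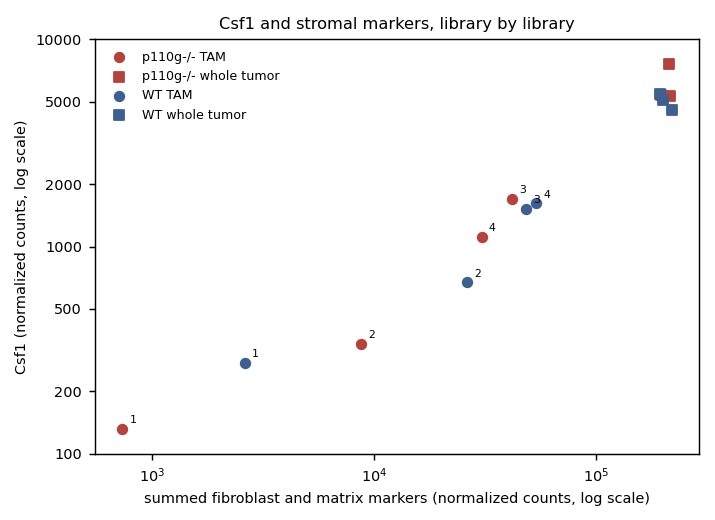
Csf1 against the summed normalized counts of 10 fibroblast and matrix markers, both on log scales, with a point for each library (TAM points carry the library number). In TAM, Csf1 lay between 132 and 1701 and was lowest in both genotypes where the stromal markers were lowest; the tables were normalized separately, so the distance between TAM and whole tumor points is not a measured fold.

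In whole tumors Csf1 had 7650, 5374 and 5321 normalized counts in p110g-/- tumors, against 4544, 5460 and 5112 in WT tumors. Tumor 1 of the p110g-/- group was high and the other libraries overlapped (log2 fold change 0.26 ± 0.14 SE, limma adjusted p = 0.280). Per 1000 of the stromal counts it amounted to 36.3, 27.5 and 24.9 in p110g-/- tumors, against 20.8, 28.4 and 25.6 in WT tumors. Il34, the other CSF1R ligand, had 863, 820 and 813 in p110g-/- tumors, against 927, 943 and 966 in WT tumors. Those groups did not overlap, as for 15.4% of all genes with the p110g-/- tumors below, and the limma adjusted p was 0.0956. In TAM, Il34 had 19, 61, 238 and 157 in p110g-/- libraries and 11, 80, 239 and 224 in WT libraries, again low in those numbered 1 and 2.

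Csf3r, the G-CSF receptor of neutrophils, had 2470, 1578 and 2325 normalized counts in p110g-/- tumors, against 995, 1476 and 1347 in WT tumors. Every p110g-/- tumor lay above every WT tumor, with tumor 2 nearest, as for 15.7% of all genes in that direction. The log2 fold change was 0.73 ± 0.19 (SE), and the limma adjusted p of 0.0723 missed the threshold of 0.05. In TAM it had 2180, 1177, 800 and 1037 in p110g-/- libraries, against 1932, 1113, 963 and 918 in WT libraries. The log2 fold change there was 0.04 ± 0.34 (SE, limma adjusted p = 0.999), and libraries numbered 1 were the highest of both genotypes.

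Its ligand and other neutrophil genes were read beside it, with those named singled out after their values were seen. Csf3 had 447, 64 and 94 normalized counts in p110g-/- tumors, against 53, 59 and 72 in WT tumors, so its higher p110g-/- mean came mostly from tumor 1 (limma adjusted p = 0.274). Cxcr2, a chemokine receptor of neutrophils, had 830, 436 and 709 in p110g-/- tumors, against 308, 412 and 394 in WT tumors. Its groups did not overlap, as for 15.7% of all genes in that direction (log2 fold change 0.78, limma adjusted p = 0.0883). Hdc, histidine decarboxylase, had 2428, 1139 and 1714 in p110g-/- tumors, against 778, 1318 and 1078 in WT tumors, with overlap. S100a8, an abundant neutrophil granule protein gene, overlapped, at 3117, 1690 and 2576 in p110g-/- tumors and 1953, 2802 and 2035 in WT tumors. Within each genotype, Cxcr2, Hdc and S100a8 all ranked the tumors in the same order as Csf3r. Of the other listed neutrophil markers, S100a9, Il1r2 and Trem1 did so too. Mmp9, Retnlg, Mmp8, Cd177 and Ltf did not, and ranked the p110g-/- tumors otherwise. Of the 11 listed neutrophil markers in the tables, none was called by limma in whole tumors, and 8 were higher and 3 lower in mean log2 level, with a median log2 fold change of 0.33, against 0.01 over all genes. Their sum ran from 15829 to 21185 in p110g-/- tumors and from 12672 to 19667 in WT tumors. In TAM, sorted as Gr1- cells, the same markers summed to 15991 to 23983 in p110g-/- and 15236 to 19426 in WT libraries. Mmp9 averaged 13042 and 10815 there, and Trem1 5139 and 4323, so neither the sum nor the count of markers measures neutrophils alone. Csf3r was also present in TAM, at 800 to 2180 in p110g-/- and 918 to 1932 in WT libraries. Cxcr2 ran there from 19 to 102 and from 23 to 67, and S100a9 from 8 to 104 and from 14 to 84. The part of neutrophil number in the Csf3r values was not tested.

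**Figure D5:**
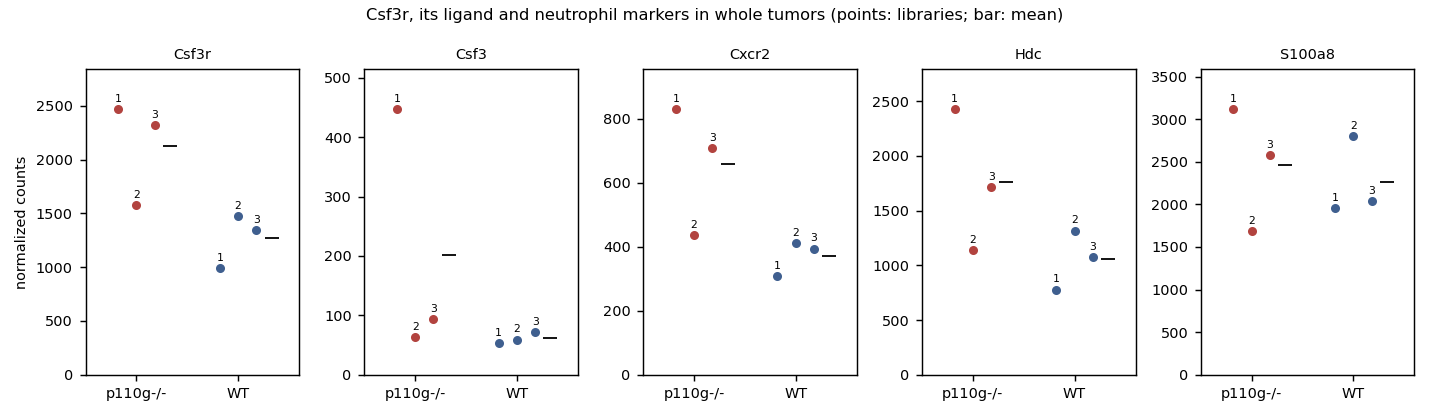
Normalized counts of Csf3r, its ligand Csf3 and neutrophil genes in whole tumors, p110g-/- left of WT; points are tumors and bars are means, each panel on its own axis from 0. Csf3r and Cxcr2 lay above every WT tumor in all 3 p110g-/- tumors, while Hdc and S100a8 overlapped and Csf3 was high in 1 p110g-/- tumor, at 447.

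In whole tumors, where Csf2ra was called, 5 of 10 T and NK cell markers were called higher (Cd3d, Cd3g, Cd8a, Lck and Nkg7), and their sum was 893 to 1364 in p110g-/- tumors, against 236 to 526 in WT tumors. Kit and Ccr3, markers of mast cells and eosinophils, were also called higher. In TAM, Kit was called higher with the block (log2 fold change 1.03, limma adjusted p = 0.514, and 0.0196 with the block). The list of mast cell, basophil and eosinophil markers summed to 263 to 386 in p110g-/- TAM, against 153 to 252 in WT TAM. That sum was mostly Kit, at 125 to 312 against 75 to 135, and Ccr3, at 71 to 134 against 19 to 96. The list did not rise together. Cpa3, Mcpt4 and Tpsb2 reached at most 8, 7 and 25 in p110g-/- TAM, against 18, 25 and 21 in WT TAM. Cpa3 and Mcpt4 had the lower mean in p110g-/- TAM, and Tpsb2 overlapped. None of the 7 endothelial markers was called in whole tumors, all 7 had a positive log2 fold change with a median of 0.60, and their sum was 2910 to 3248 in p110g-/- tumors, against 2262 to 2974 in WT tumors. The carcinoma keratins Krt8 and Krt18 were called lower, at 5125, 4539 and 5344 for Krt8 in p110g-/- tumors, against 7655, 7911 and 7586 in WT tumors. Monocyte markers summed to 8118 to 11976 in p110g-/- tumors and 8397 to 12515 in WT tumors, and dendritic cell markers to 2663 to 3625 in p110g-/- tumors and 2973 to 5397 in WT tumors. No marker of those 2 lists was called by limma in whole tumors. Whether these cells had a part in the Csf2ra difference was not tested.

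The genotype effects in TAM and in whole tumors were compared directly in a fit over all 14 libraries. No member was called by limma, and none had an unadjusted p below 0.05; over all genes 0.145% were called. The effect in TAM minus that in whole tumors was 0.61 for Csf2ra (limma adjusted p = 0.866), so its smaller change in TAM was not separated from that in tumors. It was -0.69 for Csf3r and -0.87 for Csf1, neither called.

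Among other genes of these pathways, 3 of the 49 listed genes tested in whole tumors were called, or 6.12%, near the 4.35% of all genes, and none in TAM by limma, with or without the block. The 8 genes of JAK-STAT signalling had a median log2 fold change of 0.12 in whole tumors and -0.05 in TAM.

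Of 10 feedback regulators and targets of STAT signalling, Bcl6, a transcriptional repressor, was called higher and Osm, the cytokine oncostatin M, lower in whole tumors. Bcl6 had 819, 909 and 961 normalized counts in p110g-/- tumors, against 558, 620 and 681 in WT tumors (log2 fold change 0.53 ± 0.09 SE, limma adjusted p = 0.0293). Osm had 2001, 1607 and 2272 in p110g-/- tumors, against 2871, 4387 and 5615 in WT tumors (log2 fold change -1.09 ± 0.23 SE, limma adjusted p = 0.0436). In TAM, where Osm was not called, its mean lay the other way, at 2925 in p110g-/- libraries and 2007 in WT libraries. Osm is also a target of STAT5 below the beta chain. The list as a whole had a median log2 fold change of -0.18 in whole tumors and 0.39 in TAM, against 0.01 and -0.01 over all genes. Socs3, a feedback inhibitor, had 17028, 16435, 14900 and 16456 in p110g-/- TAM, against 14429, 11613, 7802 and 8500 in WT TAM, without overlap, as for 2.37% of all genes in that direction (log2 fold change 0.66 ± 0.19 SE, limma adjusted p = 0.460).

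Without a block, none of the 17 genes of CSF1R-proximal signalling was called in either table, and 14 of them had a positive log2 fold change in whole tumors against 7 in TAM. Their median was 0.22 in whole tumors and -0.01 in TAM. Tyrobp, an adaptor of myeloid receptors, had 4521, 4984 and 6170 normalized counts in p110g-/- tumors, against 4279, 5023 and 5216 in WT tumors. None of 10 transcription factors of these receptor genes was called. Spi1, which encodes PU.1, had 13733, 16471, 10507 and 12657 in p110g-/- TAM, against 14457, 15434, 13799 and 14285 in WT TAM. Those groups overlapped.

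For each member, the genes with the most similar pattern were found as those with the smallest mean absolute difference in log2 level, standardized within each table, over the 14 libraries and 10197 genes. They were Amotl2 (0.144 SD units) and Fam171a1 (0.217) for Csf1, and Pctp (0.175) was among the 2 nearest to Csf1r. For Csf2ra they were Ccdc71l (0.183) and Def6 (0.254), and for Csf2rb Tmem189 (0.213) and Tlr4 (0.235). For Csf2rb2 they were Gm13251 (0.224) and Orai2 (0.251), and for Csf3r Irg1 (0.195) and Stard5 (0.218). The median over all genes lay near 1.1 SD units for every member. Neither beta chain was among the 5 genes nearest to Csf2ra, nor among the 5 nearest to the other beta chain. With 10197 genes compared, such an absence says little.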

How the data were processed

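Per the labels, RNA was sequenced on an Illumina HiSeq 2000. Bowtie2, DESeq and mm9, a mouse genome build, are named in the submitters' processing notes, with no versions; the gene counter and the scaling formula are not given. The authors deposited, in a table for TAM and a table for whole tumors, a score per gene and library, whole-number normalized counts scaled separately in each table. Each deposited table also holds a column of values from 0 to 1, a fraction of unstated meaning that was not used. Depth was estimated from the spacing of the values, covering counting error only.

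Genotypes were compared with limma 3.58.1 (R 4.3.3) on log2(normalized count + 1), a scale that understates changes of low genes, with a mean-dependent prior. Genes needed 10 normalized counts in 4 TAM or 3 tumor libraries. P-values were two-sided and adjusted over all genes by Benjamini-Hochberg, with a call below 0.05. On simulated data the TAM test recovered 85 of 100 genes changed by 1 log2 unit and the tumor test 65 of 100, and both recovered 100 of 100 at 2 units. The simulated libraries were independent, with the same fixed spread for all genes, and only genes well above the filter were changed. They lacked the deviations that the TAM libraries share, so these recovery rates need not hold for the real libraries. Ratios were compared by exact permutation. Libraries keep their labelled numbers; same-numbered TAM libraries were taken as paired because every pair's correlation was above 0.1. Levels per kilobase used the union of exons in GENCODE M21 (GRCm38).

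The members and gene lists were chosen with earlier results of these data known. Named genes are the members, Pik3cg, list genes called or high in level, marker genes called where a member was, and the nearest genes in pattern; others are said to be chosen after their values were seen. Some genes that this rule names are not reported here. Alternatives were other pseudocounts, filters, scalings, library weights, a number block, a joint fit and leaving out libraries.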

Additional observations from a re-analysis of the deposited data

Results flagged for a closer look

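In 30 groups of 4 TAM libraries, 5 had a library far from the others, and tumor groups of 3 were not tested. Chance gives about 1 in 20 for independent groups. These were genes read in the same libraries, so the count cannot be set against that rate. Csf2 was at 3 normalized counts in p110g-/- TAM library 3 and at 0 in the other 3 p110g-/- libraries, within the worth of 3 reads. With the rest at 0, any value above 0 would have been flagged. Cish, a STAT5-induced inhibitor, reached 907 in WT library 1, and the other WT libraries had 309, 228 and 258, while the p110g-/- libraries had 160, 794, 668 and 825. Socs2, another STAT5-induced inhibitor, reached 421 in the same WT library, and the others had 126, 131 and 162, while the p110g-/- libraries had 103, 395, 285 and 347. The p110g-/- library numbered 1 was thus the lowest of its group in both genes and the WT library numbered 1 the highest. Osm was far above the other WT libraries in WT library 1 as well, at 3638, with 1561, 1332 and 1496 in the rest. The p110g-/- libraries had 2452, 2157, 2860 and 4232 of Osm. Bcl6 stood at 3773 in p110g-/- library 1, with 1560, 1659 and 1746 in the other p110g-/- libraries and 3173, 2280, 1997 and 1934 in WT libraries.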

How the results depend on the processing

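Csf2ra was lower in p110g-/- under all alternatives tried in both tables, by log2 fold changes of -0.80 to -0.49 in TAM and -1.48 to -1.12 in whole tumors when a library was left out. The count of members called in TAM, 0, was 2 with sample quality weights and 3 with a replicate block and both libraries numbered 1 left out. In whole tumors it was 1, and 0 with all 14 libraries in one fit, 0 to 2 with a library left out, and 2 with the block and both libraries numbered 1 left out. Same-numbered tumors correlated at 0.0947, 0.0763 and 0.178, so they share only a number; the replicate block there called 1 member (Csf2ra, adjusted p = 0.00146 by limma) and 759 genes, with Pik3cd and Pik3r5 (higher), Chil3 (lower) and further T and NK cell markers among those it added. In TAM the block changed no call of a member or pathway gene; it called Pik3cg. In the difference of effects it called Pik3cd (-0.53, adjusted p = 0.0219 by limma).

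Over all genes, 14 were called in TAM and 312 with the block, 87 in the joint fit, 999 with weights and 0 to 40 with a library left out. In whole tumors 553 were called and 14 in the joint fit, 2308 with weights and 29 to 1985 with a library left out; scaling to library totals gave 393 higher and 182 lower, against 286 and 267. The difference of effects called 18 genes, 327 with the block and 0 to 101 with a library left out. The blocked fits with both libraries of a number left out called 77 to 605 genes in TAM and 32 to 1931 in whole tumors. Causes of these shifts were not tested.

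Signs turned for the following values, none of them called. With a library left out, the range was -1.16 to 0.0706 for Csf1, -0.24 to 0.28 for Csf3r and -0.29 to 0.0545 for Pik3cd in TAM, -0.18 to 0.14 for Csf2rb in whole tumors, and -0.0290 to 0.30 for Csf2rb2 and -0.36 to 0.0302 for Pik3cg in the difference of effects. Relative to macrophage markers it was -1.19 to 0.16 for Csf1 and -0.16 to 0.22 for Csf3r in TAM, and -0.10 to 0.38 for Csf1 and -0.17 to 0.0719 for Csf2rb in whole tumors. Csf3r in TAM was -0.0127 when scaled to totals and -0.00366 and -0.00416 in blocked fits without numbers 1 and 4. Csf2rb in whole tumors was -0.10 with weights and -0.17 in the blocked fit without number 1. With 3 or 4 libraries a group, small differences could not be separated from the spread, and genes at a few reads were not testable.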
